A study of Homo sapiens with 4 samples.

Results

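The 8 genes described here encode liver-enriched transcription factors, HNF4A, HNF4G, FOXA1, FOXA2, FOXA3, CEBPA, ONECUT2 and NR5A2, and were taken by gene name from the 58174 genes of the expression table. They were read in every library of the series: LM3 cells (a hepatocellular carcinoma line) and RBE cells (an intrahepatic cholangiocarcinoma line), each given by lipofection either si-FENDRR, an siRNA whose target FENDRR is a long noncoding RNA, or the control siRNA si-NC, and all harvested after 48 h. Each line had 1 library per transfection, so there were 4 libraries in all and no replicate of 1 condition. Values are FPKM, a read measure scaled for gene length and library size, so that levels can be set beside each other between genes.

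These factors bind each other's regulatory regions and those of genes for plasma proteins, lipoproteins and bile acid synthesis. FOXA proteins open compacted chromatin in the embryonic endoderm. HNF4 proteins are nuclear receptors, and HNF4A is needed to become and remain a hepatocyte. C/EBP alpha favours the mature, slowly dividing hepatocyte over the biliary fate. NR5A2 is a nuclear receptor of bile acid and cholesterol control in liver, intestine and pancreas, and ONECUT2, a relative of HNF6, takes part in forming hepatocytes and bile ducts. HNF4G is best known from the intestinal epithelium.

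The siRNA target could not be used to check the labels: FENDRR was listed at 0 in the si-FENDRR and the si-NC libraries of both lines. Each library held 13437 to 13682 genes at 1 FPKM or more, and 30947 to 31696 genes listed at 0. All 8 factors were among the 15930 genes with at least 1 FPKM in some library and were therefore tested. In a bulk library, fewer cells with a transcript and less transcript per cell cannot be told apart.

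RefSeq start sites on GRCh38.p14 were found for 6 of the 8 genes, and none was matched for HNF4G and FOXA2. Shown are the 250 bases before the starts of HNF4A, CEBPA and NR5A2, because HNF4A is transcribed from alternative promoters and because CEBPA and NR5A2 differed most between the lines. HNF4A has an upstream start known from pancreas and fetal liver and a downstream start known from adult liver, 45540 bases apart, and the deposited level of HNF4A does not separate them. Capitals mark matches, on either strand, to 5 letter patterns: CAAAGTNCA for HNF4, TNTTTAC for FOXA, TTGCNNAA for C/EBP, ATCAAT for ONECUT factors and CAAGGTCA for NR5A2.
HNF4A, upstream start, chr20:44355449-44355698, plus strand: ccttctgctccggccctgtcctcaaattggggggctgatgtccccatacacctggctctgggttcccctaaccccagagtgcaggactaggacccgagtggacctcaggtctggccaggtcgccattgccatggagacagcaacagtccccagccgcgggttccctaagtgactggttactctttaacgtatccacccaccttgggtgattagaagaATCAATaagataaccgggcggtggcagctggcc
HNF4A, downstream start, chr20:44400989-44401238, plus strand: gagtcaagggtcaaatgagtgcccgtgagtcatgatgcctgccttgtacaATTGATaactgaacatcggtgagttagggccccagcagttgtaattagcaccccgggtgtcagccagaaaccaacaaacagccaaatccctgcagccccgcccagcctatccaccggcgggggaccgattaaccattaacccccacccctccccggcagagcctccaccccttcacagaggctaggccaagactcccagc
NR5A2, downstream start, chr1:200042341-200042590, plus strand: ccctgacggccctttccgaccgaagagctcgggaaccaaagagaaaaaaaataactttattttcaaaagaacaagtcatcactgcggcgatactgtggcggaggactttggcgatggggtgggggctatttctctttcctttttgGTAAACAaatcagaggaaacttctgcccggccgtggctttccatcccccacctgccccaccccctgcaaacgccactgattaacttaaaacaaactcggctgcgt
CEBPA, chr19:33302535-33302784, minus strand: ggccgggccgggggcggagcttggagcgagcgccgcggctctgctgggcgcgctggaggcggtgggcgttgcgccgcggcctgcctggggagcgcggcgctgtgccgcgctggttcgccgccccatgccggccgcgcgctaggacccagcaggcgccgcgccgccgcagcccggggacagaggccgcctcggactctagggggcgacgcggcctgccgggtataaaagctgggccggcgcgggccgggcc

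The ONECUT pattern occurred 200 bases before the liver start of HNF4A. The upstream start of HNF4A held it as well, 33 bases before the start. The start of NR5A2 shown held the FOXA pattern 105 bases before it, and its other RefSeq start at chr1:200027460-200027709 held none of the 5. The window of CEBPA, at 81.2% G and C against a median of 58% over all windows, held none, nor did those of FOXA1 and FOXA3, and ONECUT2 held the FOXA pattern. Among 35116 windows of the same length, 0.94% held the HNF4 pattern, 9.58% the FOXA pattern, 9.05% the C/EBP pattern, 5.58% the ONECUT pattern and 1.14% the NR5A2 pattern. These are matches of letters and no measure of binding.

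Between the lines, 6 of the 8 factors differed: CEBPA, HNF4A and HNF4G were higher in LM3, and NR5A2, FOXA1 and FOXA3 were higher in RBE. FOXA2 and ONECUT2 did not pass the test. The test was limma on log2(FPKM + 1) with terms for cell line and transfection, with Benjamini-Hochberg adjustment over all 15930 genes and a threshold of 0.05. It rests on 1 residual degree of freedom, and a line's 2 libraries are not replicates, since each had another siRNA. It called 58.7% of all genes tested, 32.3% higher in LM3 and 26.4% higher in RBE. This balance of directions turned with the scaling of the libraries, with 4762 genes higher in LM3 and 4695 in RBE under median-of-ratios scaling and 4471 and 4973 under quantile normalization, against 5147 and 4201 as deposited. The count of 6 among 8 is thus a description of these genes and not a feature that sets them apart. In 7 of the 8, all but FOXA2, both libraries of one line lay above both of the other, as they did in 81.7% of all genes tested.

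**Figure D1:**
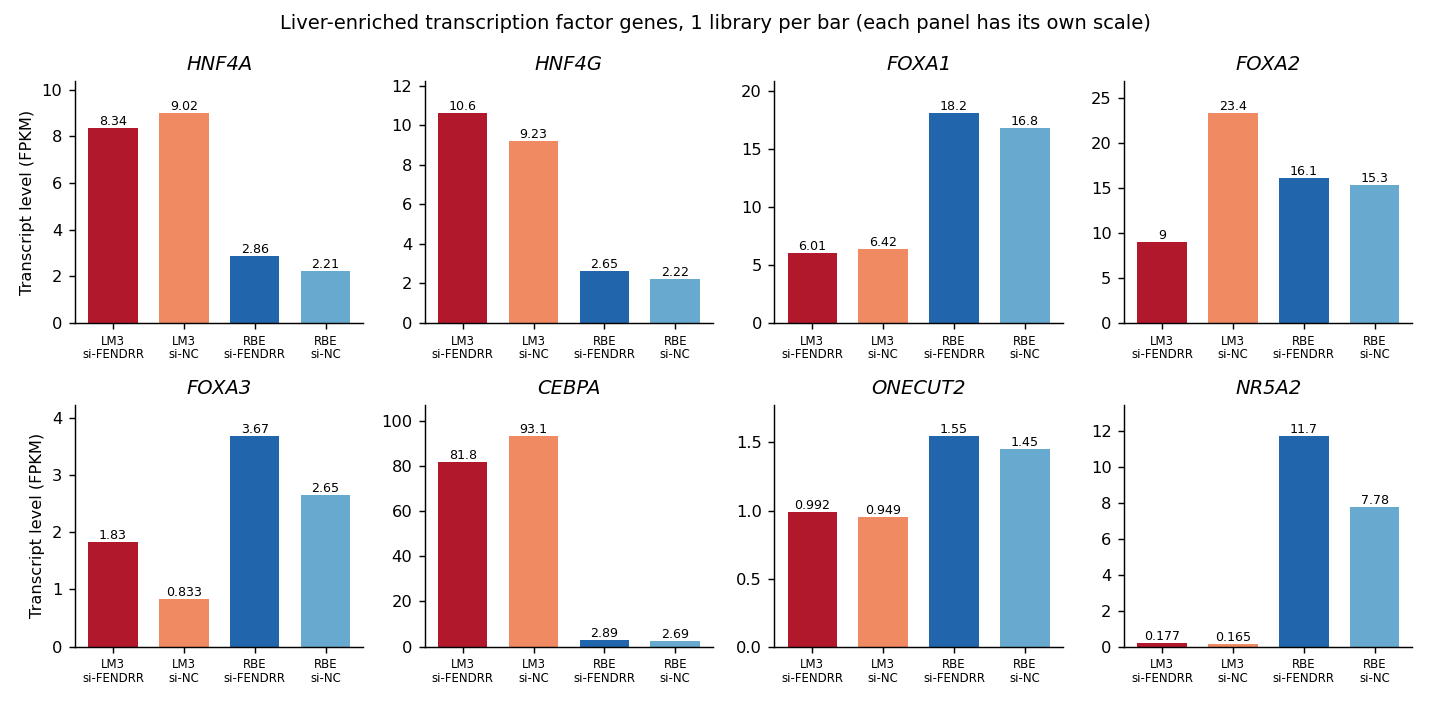
Transcript level in FPKM (vertical axis, a separate scale in each panel) of the 8 liver-enriched factors, with 1 bar per library and no error bar because each bar is 1 library. CEBPA stood at 81.8 and 93.1 FPKM in LM3 and below 3 FPKM in RBE, NR5A2 showed the opposite contrast, and FOXA2 was the gene whose LM3 libraries lay on either side of both RBE libraries.

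CEBPA (ENSG00000245848, chromosome 19, 33299934 to 33302564, minus strand, hg38, a single exon) was at 81.8 FPKM (si-FENDRR) and 93.1 FPKM (si-NC) in LM3, against 2.89 and 2.69 FPKM in RBE. No other factor of the 8 stood as high in any library. In LM3 it lay above 95.1% and 95.8% of the genes tested, and in RBE above 35.0% and 34.4%. Antisense models AC008738.3 and AC008738.5 lie across its exon on the plus strand, and each was at 1.31 FPKM or less in every library. The strand setting of the counting is not stated by the labels or file headers, so reads of CEBPA and these models may not have been told apart. On the log2(FPKM + 1) scale the difference was 4.54 ± 0.13 (LM3 minus RBE, SE, n = 2 libraries per line), 23.3-fold in FPKM + 1, with an adjusted p of 0.00065 by limma.

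HNF4A (ENSG00000101076, chromosome 20, 44355700 to 44434596, plus strand) was at 8.34 FPKM (si-FENDRR) and 9.02 FPKM (si-NC) in LM3, against 2.86 and 2.21 FPKM in RBE. Its paralog HNF4G (ENSG00000164749, chromosome 8, 75407914 to 75566843, plus strand) was at 10.6 and 9.23 FPKM in LM3, against 2.65 and 2.22 FPKM in RBE. Both HNF4 genes were thus higher in each LM3 library than in either RBE library, and to a like degree. The log2 difference, LM3 minus RBE, was 1.46 ± 0.15 (SE) for HNF4A with an adjusted p of 0.00444 by limma. For HNF4G it was 1.67 ± 0.12 with an adjusted p of 0.00224 by limma. HNF4G made up 56.1% and 50.6% of the summed HNF4 level in LM3 with si-FENDRR and si-NC, against 48.1% and 50.1% in RBE. The antisense gene HNF4A-AS1 was listed at 0 in all 4 libraries.

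NR5A2 (ENSG00000116833, chromosome 1, 200027602 to 200177424, plus strand) was at 0.177 FPKM (si-FENDRR) and 0.165 FPKM (si-NC) in LM3, against 11.7 and 7.78 FPKM in RBE. It was the lowest of the 8 factors in LM3 and the third highest in RBE. The log2 difference was -3.17 ± 0.19 (LM3 minus RBE, SE, n = 2 libraries per line), with an adjusted p of 0.00157 by limma, or 9.01-fold higher FPKM + 1 in RBE.

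The FOXA genes did not move as a block. FOXA1 (ENSG00000129514, chromosome 14, 37589984 to 37596059, minus strand) was at 6.01 FPKM (si-FENDRR) and 6.42 FPKM (si-NC) in LM3, against 18.2 and 16.8 FPKM in RBE, a log2 difference of -1.36 ± 0.13 (SE) with an adjusted p of 0.00339 by limma. An exon of TTC6 crosses it on the other strand, and TTC6 was at 1.47 FPKM or less in every library. FOXA3 (ENSG00000170608, chromosome 19, 45863989 to 45873797, plus strand) was at 1.83 and 0.833 FPKM in LM3, against 3.67 and 2.65 FPKM in RBE. Its log2 difference of -0.86 ± 0.15 (SE) had an adjusted p of 0.0135 by limma. With any single library left out, in fits with cell line as the only term, it ranged from -1.17 to -0.55 and no longer passed.

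FOXA2 (ENSG00000125798, chromosome 20, 22581005 to 22585455, minus strand) was at 9 FPKM (si-FENDRR) and 23.4 FPKM (si-NC) in LM3, against 16.1 and 15.3 FPKM in RBE. The RBE libraries lay between the LM3 libraries. The log2 difference between the lines was -0.10 ± 0.36 (LM3 minus RBE, SE), with an adjusted p of 0.828 by limma. The sign depended on the LM3 library used: without the LM3 si-FENDRR library the difference was 0.55, and without the LM3 si-NC library it was -0.74. These fits had cell line as their only term. They set 1 LM3 library of 1 siRNA against the RBE libraries of both.

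ONECUT2 (ENSG00000119547, chromosome 18, 57435685 to 57491297, plus strand) was at 0.992 FPKM (si-FENDRR) and 0.949 FPKM (si-NC) in LM3, against 1.55 and 1.45 FPKM in RBE. The libraries of the lines did not overlap, but the log2 difference of -0.34 ± 0.14 (LM3 minus RBE, SE) did not pass, at an adjusted p of 0.107 by limma. Its relatives ONECUT1 and ONECUT3 were at 0.270 FPKM or less in every library. These relatives were chosen after their values were seen.

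**Figure D2:**
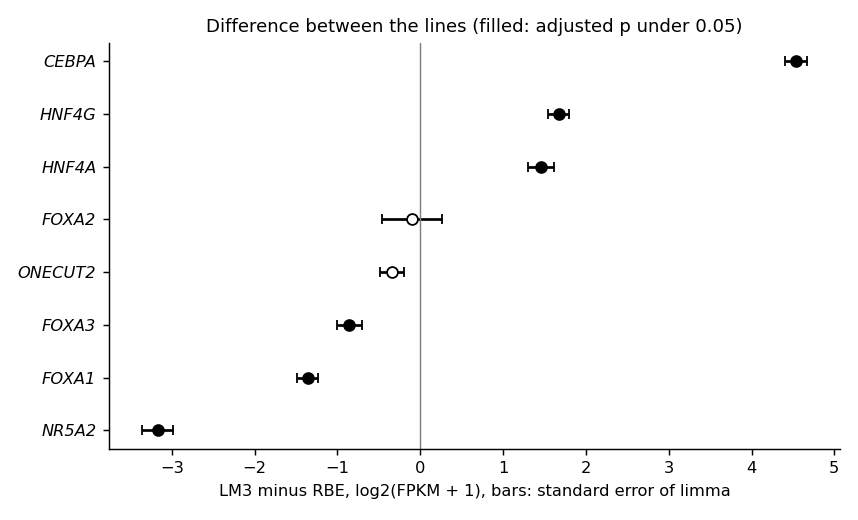
Difference between the lines on the log2(FPKM + 1) scale (horizontal axis, LM3 minus RBE) for each factor, with the standard error of limma as bars. Filled points passed an adjusted p of 0.05: CEBPA at 4.54, HNF4G at 1.67 and HNF4A at 1.46 lie to the right, FOXA3 at -0.86, FOXA1 at -1.36 and NR5A2 at -3.17 to the left, and the open points are FOXA2 and ONECUT2.

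The order of levels differed between the lines. In LM3, mean levels fell in the order CEBPA (87.4 FPKM), FOXA2 (16.2), HNF4G (9.93), HNF4A (8.68), FOXA1 (6.22), FOXA3 (1.33), ONECUT2 (0.970) and NR5A2 (0.171). The ranges of FOXA2 and HNF4G overlapped there, and so did those of FOXA3 and ONECUT2. In RBE, FOXA1 (17.5 FPKM), FOXA2 (15.7) and NR5A2 (9.73) led, each with a range apart from the next. Below them FOXA3 (3.16), CEBPA (2.79), HNF4A (2.53) and HNF4G (2.43) each overlapped its neighbour in that order, and ONECUT2 (1.5) was lowest.

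Summed over paralogs, the HNF4 genes reached 19.0 FPKM (si-FENDRR) and 18.2 FPKM (si-NC) in LM3, against 5.51 and 4.43 FPKM in RBE. The FOXA genes reached 16.8 and 30.7 FPKM in LM3, against 38.0 and 34.8 FPKM in RBE. FOXA2 supplied 53.4% and 76.3% of the FOXA sum in LM3, against 42.5% and 44.0% in RBE, where FOXA1 supplied 47.8% and 48.4%. The C/EBP genes reached 221 and 259 FPKM in LM3, against 48.8 and 47.7 FPKM in RBE. CEBPA was 37.0% and 35.9% of that sum in LM3 and 5.93% and 5.65% in RBE, where CEBPB and CEBPD made up most of it.

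**Figure D3:**
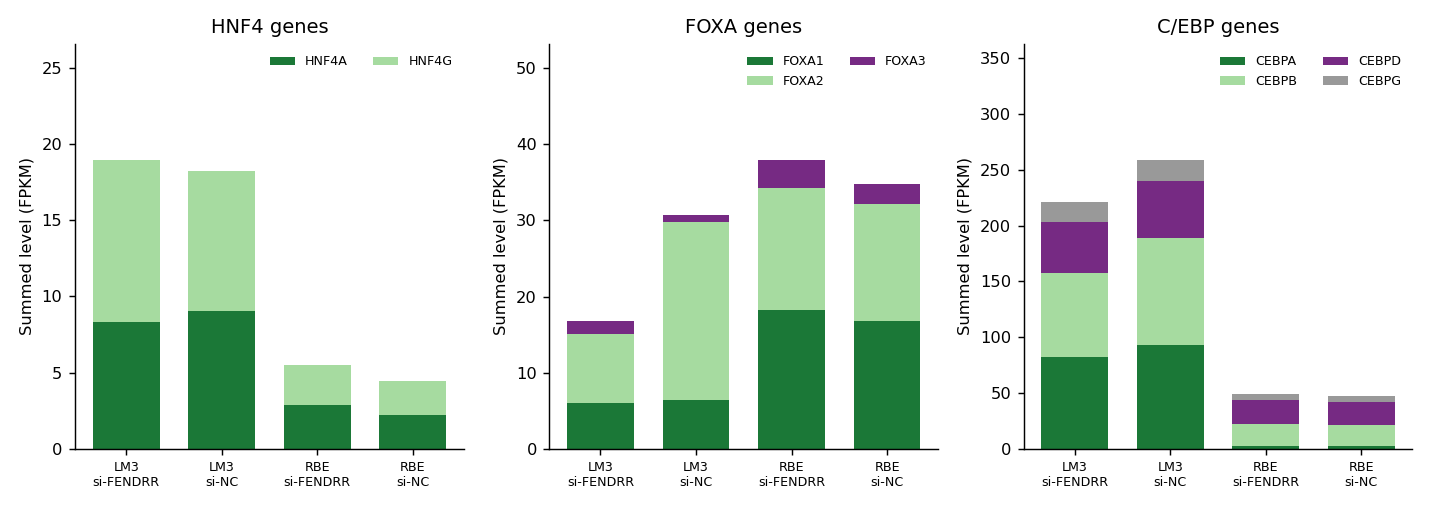
Summed transcript level in FPKM (vertical axis) of the HNF4, FOXA and C/EBP genes in each library, 1 library per bar, with colours for the genes. The HNF4 and C/EBP sums were higher in both LM3 libraries, at up to 19.0 and 259 FPKM, and the FOXA sum was lowest in the LM3 si-FENDRR library at 16.8 FPKM.

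Among relatives of the factors, 4 of the 8 tested genes (50%) were higher in LM3 by limma and 1 (12.5%) was higher in RBE. The shares over all genes tested were 32.3% and 26.4%. CEBPB, the C/EBP protein of the acute phase, was at 75.9 and 95.8 FPKM in LM3, against 19.0 and 18.7 FPKM in RBE (log2 difference 2.12, adjusted p = 0.00185). CEBPD, at 45.4 and 51.1 against 21.5 and 20.7 FPKM, CEBPG, at 17.8 and 19.1 against 5.39 and 5.55 FPKM, and the cell cycle forkhead gene FOXM1 were the others higher in LM3. FOXO1, an insulin-regulated forkhead gene, was the gene higher in RBE, at 1.52 and 1.49 FPKM in LM3 against 4.25 and 3.13 FPKM in RBE, and it shares exons with another gene on its strand. FOXM1 did not pass without the LM3 si-NC library, nor did FOXO1 without either LM3 library. CEBPE and NR5A1, the steroidogenic relative of NR5A2, were listed at 0 in all 4 libraries.

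Of 20 tested genes for other liver factors, 10 (50%) were higher in LM3 and 5 (25%) in RBE by limma. The shares over all genes tested were 32.3% and 26.4%. The median log2 difference was 0.67, against 0.09 over all genes tested. CREB3L3, a liver and intestine factor of the fasting response, was at 22.9 and 54.6 FPKM in LM3, against 0.0458 and 0.0297 FPKM in RBE. The xenobiotic receptor NR1I2 was at 3.29 and 3.35 FPKM in LM3, against 0 and 0.0207 FPKM in RBE. RXRA, the dimer partner of many liver nuclear receptors, was at 24.7 and 28.9 FPKM in LM3, against 9.98 and 10.0 FPKM in RBE. TEF, a clock-controlled PAR bZIP factor, was at 1.24 and 1.57 FPKM in LM3, against 6.24 and 7.06 FPKM in RBE.

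Biliary factors were called in both directions: of 11 tested, 4 were higher in LM3 and 4 in RBE. The share was 36.4% each way, against 32.3% and 26.4% of all genes tested. Their median log2 difference was -0.35, against 0.09 over all genes tested. SOX9, the bile duct and progenitor factor, was at 6.59 and 7.13 FPKM in LM3, against 35.6 and 31.8 FPKM in RBE. The Notch target HES1 was higher in LM3, at 55.9 and 55.1 FPKM against 18.7 and 17.9 FPKM, and so was the epithelial factor ELF3, at 234 and 250 against 110 and 125 FPKM. ELF3 shares exons with another gene on its strand.

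Genes for partners and inhibitors of the factors included 8 of 17 (47.1%) higher in LM3 and 5 (29.4%) higher in RBE by limma. The shares over all genes tested were 32.3% and 26.4%. NR0B2 (SHP), which represses NR5A2 and HNF4A and is itself a target of NR5A2, was at 6.93 FPKM (si-FENDRR) and 4.74 FPKM (si-NC) in LM3, against 35.3 and 31.6 FPKM in RBE (log2 difference -2.35, adjusted p = 0.00159). Its level thus had the same direction as that of NR5A2. DDIT3 (CHOP), which forms inactive dimers with C/EBP proteins, was at 106 and 88.1 FPKM in LM3, against 45.7 and 31.5 FPKM in RBE, but did not pass without either LM3 library or without the RBE si-NC library. TRIB2, which sends C/EBP alpha for degradation, was listed at 0 in both LM3 libraries and was at 2.02 and 3.49 FPKM in RBE, and did not pass without either LM3 library. Its relative TRIB1 was at 91.2 and 73.3 FPKM in LM3, against 38.6 and 38.9 FPKM in RBE, and did not pass without either RBE library. The coactivator NCOA3 was at 14.5 and 15.1 FPKM in LM3, against 3.31 and 2.74 FPKM in RBE. Chosen after its values were seen, PPARGC1A, a coactivator of HNF4A in fasting liver, was at 0.0236 and 0.0207 FPKM in LM3, against 2.54 and 2.60 FPKM in RBE (-1.80, adjusted p = 0.00267 by limma). Also chosen in that way, NR2F2 (COUP-TFII), which competes for HNF4 sites, was at 7.09 and 7.60 FPKM in LM3, against 22.2 and 18.3 FPKM in RBE, and it too shares exons with another gene on its strand.

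Textbook targets of the HNF4 proteins were for the most part below the level tested. Of 26 HNF4 targets, 10 reached the level for testing and 6 were listed at 0 in all 4 libraries, namely APOC3, F9, SLC10A1, OTC, G6PC and CYP8B1. Of the 10 tested, 7 were higher in LM3 and 2 in RBE (70% and 20%), against 32.3% and 26.4% of all genes tested. The median log2 difference was 1.69, against 0.09 over all genes tested. Some of the 10, MTTP among them, reached 1 FPKM in LM3 only, and TTR and APOM in RBE only. For such genes the direction follows in part from the filter. MTTP, which loads lipid onto apolipoprotein B, was at 6.59 and 5.73 FPKM in LM3, against 0.0801 and 0.0450 FPKM in RBE. The transferrin gene TF was at 43.7 and 43.3 against 9.66 and 10.9 FPKM, and VIL1, the brush border villin, at 36.6 and 29.5 against 7.58 and 7.35 FPKM. TTR, the carrier of thyroxine and retinol, was higher in RBE, at 0.883 and 0.810 FPKM in LM3 against 6.39 and 8.41 FPKM in RBE, and APOM was at 0.530 and 0.544 against 2.79 and 2.94 FPKM. TF shares exons with 2 other genes on its strand.

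Of 14 CEBPA targets, 6 were tested, of which 4 were higher in LM3 and 1 in RBE. Beside the counts of each target list stand 32.3% higher in LM3 and 26.4% higher in RBE over all genes tested. In these lists too, some genes reached 1 FPKM in 1 line only. The carboxylesterase CES1 was at 522 and 605 FPKM in LM3 and listed at 0 in both RBE libraries. UGT2B7, a glucuronidation enzyme, was at 19.1 and 19.0 FPKM in LM3, against 0.618 and 0.577 FPKM in RBE. CPS1, the entry enzyme of the urea cycle, was the target higher in RBE, at 0.0134 and 0 FPKM in LM3 against 1.53 and 1.35 FPKM in RBE. Of 15 FOXA targets, 11 were tested, of which 4 were higher in LM3 and 7 in RBE. They included AGR2, a folding enzyme of mucous cells, at 210 and 180 FPKM in LM3 against 1.25 and 0.695 FPKM in RBE, and the keratin KRT18 at 158 and 160 against 887 and 901 FPKM. SERPINA1 (alpha-1-antitrypsin) was at 0.0957 and 0.0892 FPKM in LM3, against 56.8 and 82.5 FPKM in RBE. Of 11 NR5A2 targets, 6 were tested, of which 2 were higher in LM3 and 3 in RBE. SCARB1, the HDL receptor, was at 237 and 236 FPKM in LM3 against 70.9 and 66.7 FPKM in RBE, the reverse of NR5A2, and CYP7A1 and CYP8B1, the bile acid enzymes, were listed at 0 in all 4 libraries. The lists overlap, with ALB, TTR, APOA1 and others in more than 1 of them.

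**Figure D4:**
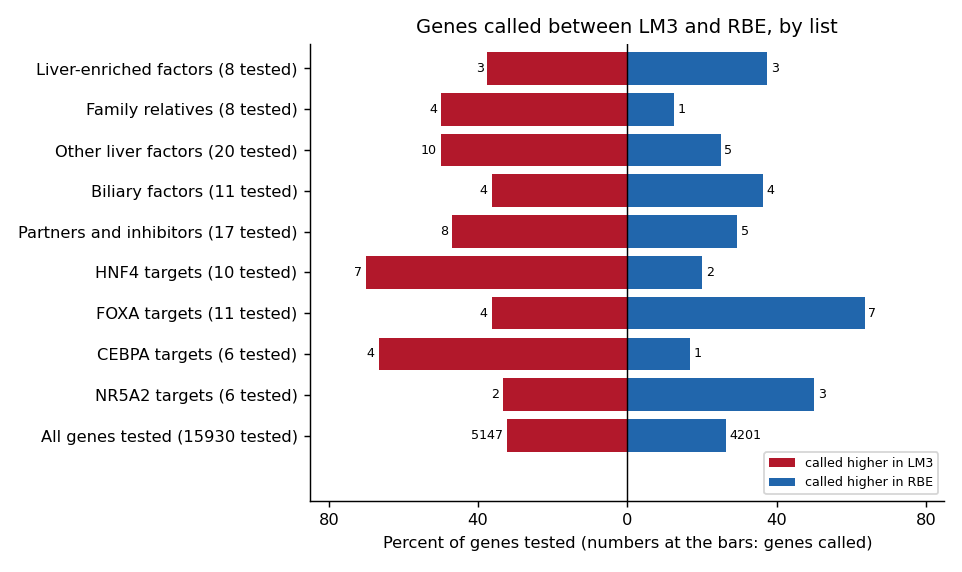
Percent of the tested genes of each list (horizontal axis) that limma called higher in LM3 (left) or in RBE (right), with the number of genes at each bar and all genes tested in the bottom row. HNF4 targets (7 against 2) and CEBPA targets (4 against 1) lay mostly on the LM3 side and FOXA targets (4 against 7) mostly on the RBE side, and all genes tested stood at 32.3% and 26.4% with the FPKM as deposited.

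Marker lists were read beside these results, and over all genes tested 32.3% were higher in LM3 and 26.4% in RBE. Of 22 hepatocyte markers, 14 were tested, 5 higher in LM3 and 6 in RBE, with summed levels of 166 and 148 FPKM in LM3 and 179 and 219 FPKM in RBE, and APOC3 was listed at 0 throughout. ALB, the defining albumin gene, was at 35.7 and 33.3 FPKM in LM3, against 0.251 and 0.270 FPKM in RBE. AMBP, the precursor of alpha-1-microglobulin and bikunin, ran the other way, at 12.5 and 10.5 FPKM in LM3 against 59.0 and 67.8 FPKM in RBE, as did SERPINA1 and TTR above. Of 16 cholangiocyte markers, 14 were tested, 1 higher in LM3 and 10 in RBE, with sums of 1663 and 1299 FPKM in LM3 and 1949 and 1918 FPKM in RBE. SPP1 (osteopontin), the marker higher in LM3, carried most of the LM3 sums, at 1118 and 909 FPKM in LM3 against 515 and 504 FPKM in RBE, and did not pass without either RBE library. CLDN4, a tight junction gene chosen after its values were seen, was at 179 FPKM (si-FENDRR) and 0.515 FPKM (si-NC) in LM3, against 50.8 and 66.7 FPKM in RBE. KRT7, a bile duct keratin, was at 7.21 and 6.02 FPKM in LM3, against 429 and 391 FPKM in RBE. Of 14 intestinal epithelium markers, 6 were tested, 5 higher in LM3 and 1 in RBE. The rest, GPA33, MUC2 and CEACAM5 among them, were below 1 FPKM in every library. ANXA13 was the marker higher in RBE, at 0.310 and 0.448 FPKM in LM3 against 6.37 and 6.71 FPKM in RBE. The list summed to 935 and 1006 FPKM in LM3 and 19.2 and 19.8 FPKM in RBE, and KRT20 and LGALS4 made up most of the LM3 sums. KRT20 was at 520 and 546 FPKM in LM3, against 0.0494 and 0.0493 FPKM in RBE, and LGALS4 was at 329 and 372 against 0.479 and 0.284 FPKM. The intestinal factor CDX2 was at 2.24 and 2.65 FPKM in LM3, against 0 and 0.0224 FPKM in RBE, while CDX1 was listed at 0 in all 4. The part of these markers in the line differences of the factors was not tested. Mesenchymal markers summed to 982 and 972 FPKM in LM3 and 975 and 1052 FPKM in RBE, with 4 of 10 tested higher in each line. The matrix gene FN1 (fibronectin) was at 939 and 932 FPKM in LM3, against 35.2 and 37.2 FPKM in RBE, and LUM (lumican) was at 28.4 and 24.9 FPKM in LM3 and listed at 0 in both RBE libraries. VIM (vimentin) was at 3.45 and 3.33 FPKM in LM3, against 820 and 897 FPKM in RBE. Of 7 endothelial markers only PECAM1 was tested, at 3.10 and 3.86 FPKM in LM3 against 0.401 and 0.408 FPKM in RBE, and of 7 leukocyte markers only CD68 and LYZ were tested, with CD3E listed at 0 in all 4.

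The genes with patterns nearest to those of the factors were sought by the Euclidean distance between log2(FPKM + 1) profiles over the 4 libraries, each centred on its own mean. For CEBPA these were HHIPL2, RARRES2 and TRPV2, at distances of 0.0547 to 0.0948. For HNF4A they were IRAK2, OSBPL1A and AC112907.3, for HNF4G ERAP2, THOC7 and TMEM189, and for FOXA1 they included ARHGAP31 and BX005266.2. For FOXA3 they were C16orf71, C9orf3 and FAM229B, and for ONECUT2 FAM32A, EHD4 and TBC1D9. NR5A2 was nearest to MACF1, GLDC and PLPP4, at distances of 0.204 to 0.242, and only 4 genes lay within 0.25 of it, against 1501 for ONECUT2. FOXA2 likewise had 4 genes within 0.25, with ACTR2 nearest at 0.0389, at 25.1 and 62.6 FPKM in LM3 and 44.3 and 40.5 FPKM in RBE, followed by CREB1 and RP9P. The genes nearest to FOXA2 were picked over these same 4 libraries, so their low level in the si-FENDRR library of LM3 follows from the choice.

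Between si-FENDRR and si-NC over both lines, limma called 0 of the 8 factors, as it called 0 (0%) of all genes tested. The smallest adjusted p of the 8 was 0.959, and 657 of 15930 genes had an unadjusted p under 0.05. FOXA3 was the factor among these, higher with si-FENDRR at 1.83 against 0.833 FPKM in LM3 and at 3.67 against 2.65 FPKM in RBE, a log2 difference of 0.49 ± 0.15 (SE, n = 2 lines) that did not pass (adjusted p = 0.959 by limma). HNF4G, ONECUT2 and NR5A2 also had positive differences in both lines, so that 4 of 8 did, against 26.9% of all genes tested. None of the 8 had negative differences in both, against 3476 of the 15930 genes tested. The other 4, HNF4A, FOXA1, FOXA2 and CEBPA, had opposite signs in the lines, as did 47.1% of all genes tested. In RBE all 8 were higher in the si-FENDRR library, by 0.05 to 0.53 on the log2 scale, where 55% of all genes tested were. That count was 8 of 8 in RBE under each scaling of the libraries tried. All 8 differences come from the same pair of RBE libraries, so they are not separate observations of the transfection.

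FOXA2 was the factor past 2-fold in LM3, where its level of 9 FPKM after si-FENDRR was 2.44-fold lower in FPKM + 1 than the 23.4 FPKM with si-NC (log2 difference -1.29, 1 library each and no test). In RBE it was at 16.1 FPKM (si-FENDRR) and 15.3 FPKM (si-NC), a difference of 0.07. Past 2-fold were 2.13% of all genes tested in LM3 and 1.75% in RBE, where 0 of the 8 factors were, and 0.942% and 0.873% were past 2-fold lower. Of protein-coding genes with no exon shared on their strand, 1.23% were past 2-fold in LM3. FOXA2 itself shares an exon with the readthrough model AL121722.1, which joins it to the long noncoding RNA gene LINC00261 on the same strand. AL121722.1 was at 0.0312 FPKM (si-FENDRR) and 0.147 FPKM (si-NC) in LM3, so it was low in both libraries, and was listed at 0 in both RBE libraries. LINC00261, which ends 2362 bases from FOXA2 in the files' coordinates, was at 0.760 FPKM (si-FENDRR) and 1.42 FPKM (si-NC) in LM3, against 0.0957 and 0.0655 FPKM in RBE. FOXA2 and LINC00261 were both lower in the si-FENDRR library of LM3. Over all genes tested, 48.1% were higher in that library and the rest were lower or equal. The log2 difference of LINC00261 there was -0.46, short of 1.5-fold. CREB3L3 was the gene past 2-fold in LM3 among the other liver factors, at 22.9 FPKM (si-FENDRR) and 54.6 FPKM (si-NC), and ESRRA, an estrogen-related receptor of mitochondrial genes, was the one past 2-fold in RBE, at 24.8 FPKM with si-FENDRR against 11.2 FPKM with si-NC.

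Of the other factors, FOXA3 (0.63 in LM3 and 0.36 in RBE) and NR5A2 in RBE differed most between the transfections. The rest lay within 0.27 of 0 in both lines. NR5A2 in RBE was at 11.7 FPKM (si-FENDRR) and 7.78 FPKM (si-NC) (0.53), and in LM3 at 0.177 and 0.165 FPKM (0.01). Past 1.5-fold were 2 factors in LM3, FOXA2 and FOXA3, and 0 in RBE, where 7.97% and 6.27% of all genes tested were. The median size of the log2 difference was 0.14 for the 8 factors in each line, against 0.15 in LM3 and 0.14 in RBE over all genes tested. CEBPA differed by -0.18 in LM3 and 0.08 in RBE, HNF4A by -0.10 and 0.27, HNF4G by 0.19 and 0.18, and FOXA1 by -0.08 and 0.10. Among the targets, 0 of the 10 HNF4, 11 FOXA, 6 CEBPA and 6 NR5A2 targets tested were past 2-fold in either line.

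**Figure D5:**
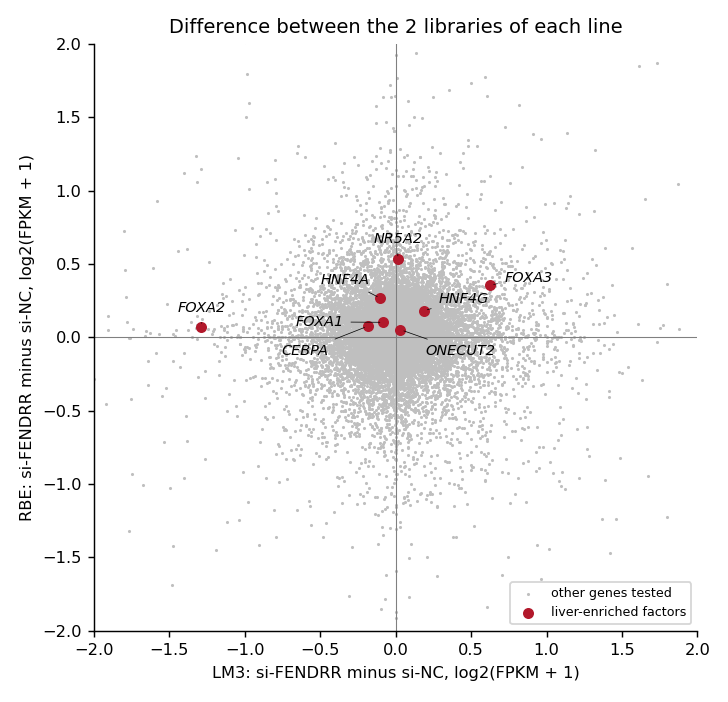
Difference between si-FENDRR and si-NC on the log2(FPKM + 1) scale in LM3 (horizontal axis) and in RBE (vertical axis), 1 library per transfection and line, for the 8 factors and all other genes tested, of which 72 lie outside the axes. FOXA2 lies at -1.29 in LM3 and 0.07 in RBE, NR5A2 at 0.53 in RBE, FOXA3 at 0.63 and 0.36, and the other factors within 0.27 of 0 in both lines.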

How the data were processed

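Libraries made with an mRNA kit from 2 lines and 2 transfections were read as deposited. Per the file headers the authors' values are FPKM per gene. Per the submitters' processing notes, FastQC, HISAT2 and hg38 were used. Their versions, the program behind the FPKM, the annotation and the strand setting are not stated there. The files hold no counts. Low values of single-exon genes times length piled up at 43.0 to 49.9 FPKM times base pairs, a step that would correspond to 20.1 to 23.3 fragments per library in units of 1e6, but only 10.2% to 15.7% of low values came within 0.02 of whole multiples of it. Reads were therefore not recovered and no counting interval is given.

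Genes reaching 1 FPKM in at least 1 library were tested with limma 3.58.1 in R 4.3.3 on log2(FPKM + 1), with a trended prior variance and terms for cell line and transfection. Within a line there is no replicate and no test. The pseudocount of 1 understates changes of weakly expressed genes. The p-values of this fit rest on how far the transfection difference disagrees between the lines, shrunk toward the prior variance of all genes. That disagreement may be technical, and it is not a spread between replicates. Gene types and exon overlaps came from GENCODE release 29, whose start and end equal the deposited ones for all 8 factors, and promoter windows from RefSeq.

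Members and lists were chosen with earlier results of these data known. The lists were written from general knowledge. The naming rule took all 8 factors, from each list up to 3 genes highest in each line, the 2 with the largest line difference per direction and genes at 0 in all libraries, and the 3 nearest patterns per factor. Some genes and sequence patterns are not reported here. Alternatives covered the pseudocount, the filter, the scaling, the prior, the model terms and single libraries left out. The restriction to protein-coding genes without same-strand exon overlap was added after seeing the data.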

Additional observations from a re-analysis of the deposited data

Results flagged for a closer look

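Of the 8 factors, 4 had differences of opposite sign between si-FENDRR and si-NC in the 2 lines, as 47.1% of all genes tested had. With 1 library per line and transfection the difference between the lines was not tested. The difference in LM3 minus that in RBE, on the log2(FPKM + 1) scale, was -1.36 for FOXA2 (-1.29 in LM3 and 0.07 in RBE), -0.37 for HNF4A (-0.10 and 0.27), -0.26 for CEBPA (-0.18 and 0.08) and -0.18 for FOXA1 (-0.08 and 0.10).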

How the results depend on the processing

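The line differences of the 8 factors kept their direction and their side of the threshold under all alternatives that used the 4 libraries. With single libraries left out and cell line as the only term, FOXA3 no longer passed (-1.17 to -0.55). FOXA2 then ranged from -0.74 to 0.55, with opposite directions by the LM3 library kept. Factors called higher in LM3 numbered 3 to 4 and those higher in RBE 2 to 3 with a library left out. With a mean FPKM of at least 5 required, 5 factors were left and 1 was called higher in RBE. The 9348 genes called between the lines became 5411 under that filter and 5573 to 6980 with a library left out. In LM3 the 339 genes past 2-fold became 940 at a pseudocount of 0.1, 100 at 5, 158 with the mean filter, 1269 at 1.5-fold and 130 without overlapping or noncoding genes. In RBE the 279 became 818, 83, 148, 999 and 125. Factors past 2-fold in LM3 were 2 at a pseudocount of 0.1, 2 at 1.5-fold and 0 without overlapping genes, where FOXA2 is not among the genes tested. The transfection difference of FOXA1, 0.01, was -0.011 with median-of-ratios scaling and -0.015 with quantile normalization. Taking 1 line alone gave opposite signs in LM3 and RBE for HNF4A (-0.10 and 0.27), FOXA1 (-0.081 and 0.10), FOXA2 (-1.29 and 0.072) and CEBPA (-0.18 and 0.077). The cause of these changes was not tested. Quantile normalization moved the median line difference of all genes from 0.09 to -0.03. The line term pairs the libraries of a line, and without it 0 genes were called between the transfections. Depth limits are unknown, since the files hold no counts.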
